A study of Gallus gallus with 6 samples.

Results

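FLT1, KDR, TEK, TIE1, CDH5, PECAM1, SOX7, SOX18 and APLNR are receptors, adhesion proteins and transcription factors of blood vessel endothelium. TSPAN18, a tetraspanin studied in human endothelial cells, was grouped with them. These 10 genes were followed here in the abdominal fat of broiler chickens kept in the heat. They were chosen by symbol, with earlier results of these data known, and all 10 were among the 15491 genes listed in the deposited count table. Blood vessels supply growing fat with oxygen, hormones and lipoproteins. Vascular endothelial growth factor (VEGF) receptors and the TIE receptors carry the signals by which vessels sprout and then settle, cadherin and immunoglobulin-type adhesion proteins hold the lining cells together, and SOXF transcription factors help to set endothelial identity.

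Messenger RNA was sequenced from 6 libraries of abdominal fat, 3 from a heat stress group and 3 from a thermoneutral group. All birds were male broilers of the Ross strain, bred for meat. The heat stress group was kept at 32 °C between 21 and 35 days of age, and the thermoneutral group stayed at 22 °C, both at 50% humidity. Birds of both groups had been in individual cages since day 14, received the same diet and had light around the clock. Whether a library is 1 chicken is not stated in the labels, and the p-values therefore describe how far these libraries spread, which may be technical.

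Heat stress libraries held 38336086 to 45163458 counts and thermoneutral libraries 30673333 to 35836632 counts. Every heat stress library was thus deeper than every thermoneutral one, and the part of depth in the results was not tested. CPM here means counts per 1000000 after scaling library totals by trimmed mean of M values (TMM), and the 10 genes had 291 to 62665 counts in a library. The 14743 genes that passed a filter on low counts, all 10 genes among them, were tested with edgeR's quasi-likelihood test, and a false discovery rate (FDR) under 0.05 over all of them was required. Adipocyte markers were abundant in every library, with a summed level of 23440, 23340 and 26870 CPM in heat stress 1, 2 and 3 and 24150, 20740 and 27910 CPM in thermoneutral 1, 2 and 3. These sums overlapped between the groups, but they add markers of both signs. Of the 9 markers, 7 had positive and 2 negative log2 fold changes in heat stress over thermoneutral. In whole tissue, a change in the number of endothelial cells and a change in RNA per endothelial cell cannot be told apart.

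In heat-stressed fat TSPAN18 rose 2.36-fold and was the 1 gene of the 10 that passed the FDR, where 0.115% of all genes tested passed it in that direction. None of the 10 passed it with heat stress lower, where 0.061% of all genes did. A further 6 genes, APLNR, SOX7, FLT1, SOX18, KDR and TIE1, had fold changes of 1.34 to 2.07 with groups that did not overlap, but missed the FDR. Groups that did not overlap, with heat stress higher, were seen for 7 of the 10 genes and for 12.6% of all genes tested. Groups apart with heat stress lower were seen for 0 of the 10 and for 12.4% of all genes. A positive log2 fold change was found for 9 of the 10 and for 49.4% of all genes. CDH5, TEK and PECAM1 overlapped between the groups, with log2 fold changes of 0.21, 0.05 and -0.005. Markers of endothelium outside the 10 were also mixed. CLDN5 and ESAM were higher without overlap (log2 fold changes 0.64 and 0.75), and ERG and EGFL7 overlapped (0.04 and 0.28). The median log2 fold change of the 10 genes was 0.61, beside a median of -0.005 over all genes tested. As the 10 were chosen with earlier results of these data known, these shares describe them and are no test.

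**Figure D1:**
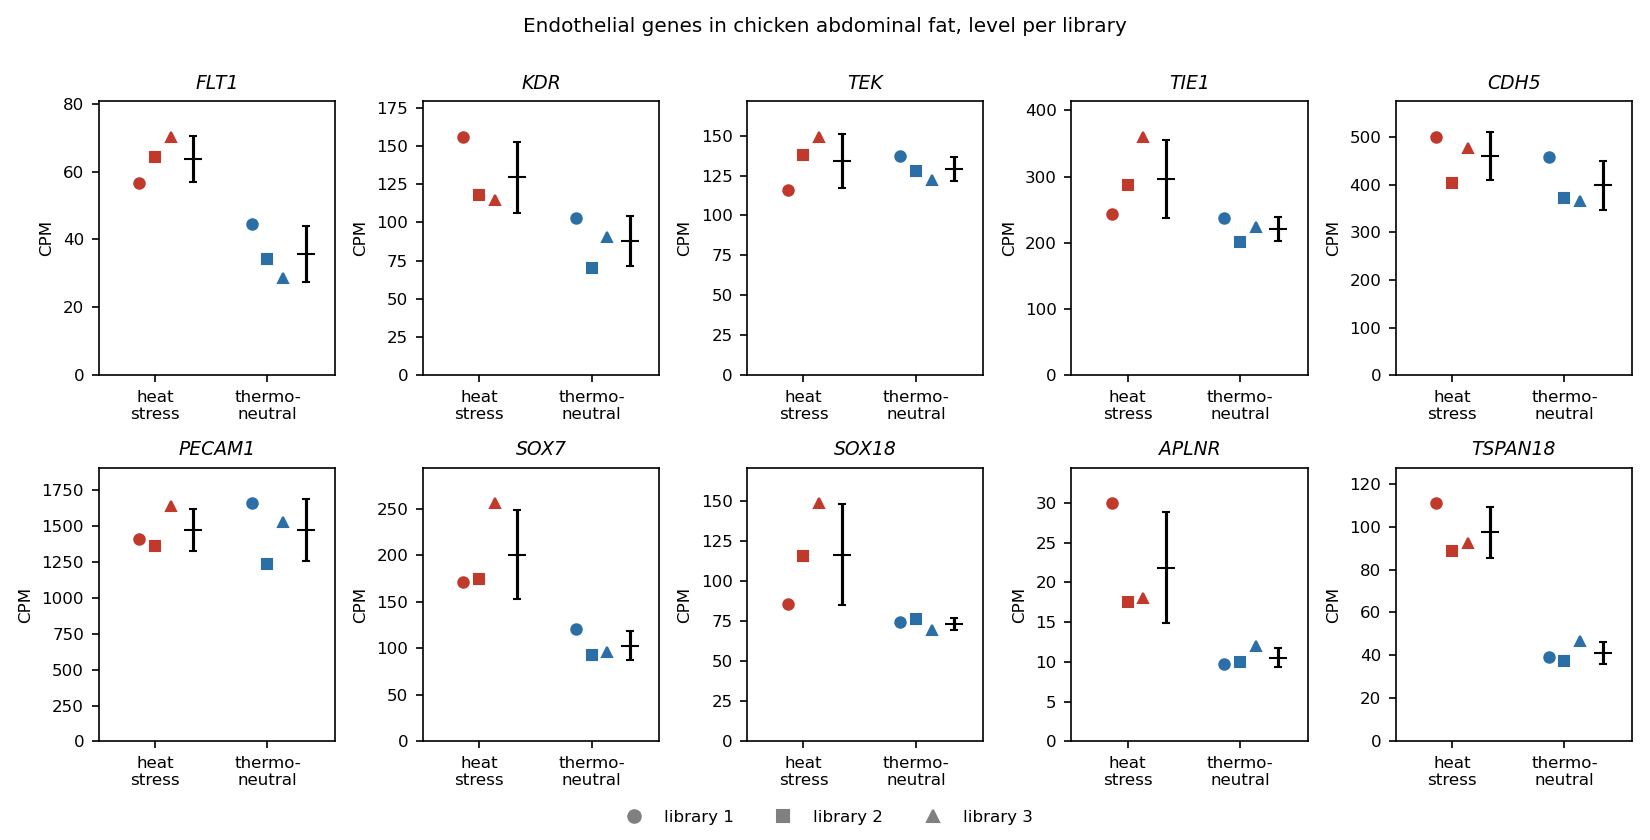
Level in CPM of each of the 10 genes in every library, with heat stress on the left and thermoneutral on the right of each panel. Symbols mark library 1, 2 and 3 of each group and bars give the mean ± SD (n = 3 each). Heat stress libraries lie above all thermoneutral libraries in 7 panels, and the groups overlap for TEK, CDH5 and PECAM1.

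TSPAN18 (gene ID 395586) encodes a tetraspanin, a membrane protein of a family that organises other membrane proteins into clusters. In human endothelial cells it binds the store-operated calcium channel, and in chick embryos it is known from the neural crest. Which cells of this fat carried TSPAN18 RNA was not tested. Its level was 110.8, 88.6 and 92.4 CPM in heat stress 1, 2 and 3, against 39.2, 37.4 and 46.9 CPM in thermoneutral 1, 2 and 3. The lowest heat stress library stood well above the highest thermoneutral one. Its log2 fold change was 1.24 ± 0.13 (SE, FDR = 0.0368 in edgeR). The call was lost in 5 of the 6 fits that left out 1 library. It held without heat stress 1 (FDR = 0.0467), and the FDR was 0.0561, 0.147, 0.0554, 0.0942 and 0.0752 without heat stress 2, heat stress 3 and thermoneutral 1, 2 and 3, while the log2 fold change stayed between 1.14 and 1.34 in these fits.

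Of 17 other tetraspanins tested, 0 passed the FDR in edgeR, 3 were higher and 1 was lower at an unadjusted p under 0.05, and DESeq2 called 1 of them higher. Over all genes tested, 9.56% were higher and 9.2% lower at that unadjusted p, and DESeq2 called 5.09% higher and 4.09% lower. The median log2 fold change of the 17 was 0.01. CD151, a tetraspanin that partners laminin-binding integrins, averaged 258 ± 20.5 CPM in heat stress and 177 ± 41.5 CPM in thermoneutral fat (log2 fold change 0.55 ± 0.17, FDR = 0.157). TSPAN2 averaged 12.0 ± 1.51 CPM in heat stress and 17.5 ± 4.70 CPM in thermoneutral fat (log2 fold change -0.55 ± 0.21, FDR = 0.216).

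FLT1 (gene ID 374100) is VEGF receptor 1, which binds VEGFA tightly and signals weakly. It had 56.8, 64.4 and 70.2 CPM in heat stress 1, 2 and 3, against 44.6, 34.2 and 28.5 CPM in thermoneutral 1, 2 and 3. The groups did not overlap, and the nearest pair was heat stress 1 and thermoneutral 1. Its log2 fold change was 0.84 ± 0.17 (SE), and it missed the threshold (FDR = 0.0765).

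KDR (gene ID 395323) is VEGF receptor 2, the main signalling receptor for VEGFA in endothelium. It had 156.0, 118.1 and 114.5 CPM in heat stress 1, 2 and 3, against 103.1, 70.2 and 90.4 CPM in thermoneutral 1, 2 and 3. Heat stress 1 was well above the rest, and the other two heat stress libraries stood just above thermoneutral 1. This came to a log2 fold change of 0.56 ± 0.18 (FDR = 0.164).

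The other genes of the VEGF system were measured alongside. Of 7 ligands and further receptors, 0 passed the FDR in edgeR, 2 were higher and 1 was lower at an unadjusted p under 0.05 (9.56% and 9.2% of all genes), and DESeq2 called 1 higher and 1 lower (5.09% and 4.09% of all genes). FLT4, VEGF receptor 3, averaged 111 ± 10.6 CPM in heat stress and 77.0 ± 6.49 CPM in thermoneutral fat (log2 fold change 0.53 ± 0.10, FDR = 0.0679). VEGFD, a ligand of the VEGF receptors, had the opposite sign, at 18.8 ± 4.26 CPM in heat stress and 33.0 ± 7.01 CPM in thermoneutral fat (log2 fold change -0.815 ± 0.22, FDR = 0.118). Both genes were without overlap between the groups. VEGFA and PGF, the ligands of FLT1, were picked for that role after their values were seen. VEGFA had 38.6, 49.3 and 66.6 CPM in heat stress 1, 2 and 3, against 34.9, 29.7 and 37.5 CPM in thermoneutral 1, 2 and 3 (log2 fold change 0.60 ± 0.20, FDR = 0.183). PGF overlapped between the groups, at 10.1 ± 2.66 CPM in heat stress and 7.82 ± 1.51 CPM in thermoneutral fat (FDR = 0.474).

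TEK (gene ID 427368), also called TIE2, is the receptor of the angiopoietins and keeps mature vessels quiescent. It had 115.8, 137.7 and 149.1 CPM in heat stress 1, 2 and 3, against 137.4, 128.0 and 122.4 CPM in thermoneutral 1, 2 and 3. The groups overlapped, and heat stress libraries were both the highest and the lowest. The log2 fold change was 0.05 ± 0.11 (FDR = 0.834), and it turned to -0.03 without heat stress 3.

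TIE1 (gene ID 424562) is the related receptor that pairs with TEK and has no well-established ligand of its own among the angiopoietins. Its level was 243.2, 287.4 and 359.7 CPM in heat stress 1, 2 and 3, against 237.4, 200.7 and 223.6 CPM in thermoneutral 1, 2 and 3. Heat stress 1 lay only just above thermoneutral 1, and heat stress 3 was the highest. That gave a log2 fold change of 0.43 ± 0.15 (FDR = 0.203). The 5 genes listed as angiopoietins and TIE partners included ANGPTL1, an angiopoietin-like gene. Of these 5, 0 passed the FDR in edgeR, and 2 were higher at an unadjusted p under 0.05 (9.56% of all genes). DESeq2 called 1 of them higher (5.09% of all genes). All 5 had positive log2 fold changes, with 0.045 for ANGPTL1. ANGPT4 averaged 141 ± 8.79 CPM in heat stress and 90.6 ± 20.9 CPM in thermoneutral fat (log2 fold change 0.63 ± 0.17, FDR = 0.116). ANGPT2, which in mammals destabilises vessels by competing at TEK, averaged 81.4 ± 13.7 CPM in heat stress and 60.9 ± 7.26 CPM in thermoneutral fat (FDR = 0.190).

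APLNR (gene ID 429337) is the G protein-coupled receptor of apelin, made by endothelial cells of growing vessels. It was the least abundant of the 10 genes, at 29.9, 17.5 and 18.1 CPM in heat stress 1, 2 and 3, against 9.71, 9.97 and 12.0 CPM in thermoneutral 1, 2 and 3. Heat stress 1 was far above the other two heat stress libraries, which were themselves above all thermoneutral libraries. The log2 fold change was 1.05 ± 0.23 (FDR = 0.0858), and it was 0.755 without heat stress 1. APLN, the apelin ligand gene, had 4.56, 5.26 and 6.87 CPM in heat stress 1, 2 and 3, against 3.64, 2.39 and 3.13 CPM in thermoneutral 1, 2 and 3 (log2 fold change 0.87 ± 0.26, FDR = 0.154). Ligand and receptor were thus both without overlap, but the highest heat stress library was heat stress 3 for the ligand and heat stress 1 for the receptor.

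**Figure D2:**
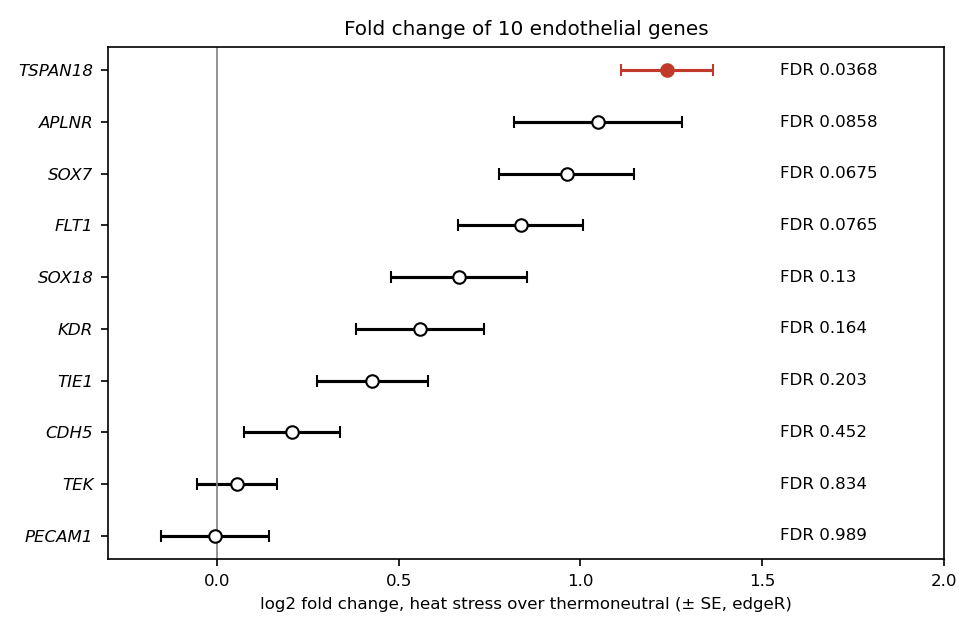
Log2 fold change of heat stress over thermoneutral for the 10 genes. Standard errors come from edgeR's quasi-likelihood fit, and the FDR over all 14743 genes is on the right. The filled point is TSPAN18, the gene with an FDR under 0.05 (0.0368), and the estimates run from 1.24 for TSPAN18 to -0.005 for PECAM1.

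SOX7 (gene ID 771337) and SOX18 (gene ID 374200) encode transcription factors of the SOXF group, which act in endothelial and vessel development. SOX7 had 171.7, 174.6 and 255.9 CPM in heat stress 1, 2 and 3, against 120.8, 92.5 and 95.7 CPM in thermoneutral 1, 2 and 3. All heat stress libraries were well above the thermoneutral ones. The log2 fold change was 0.96 ± 0.19 (FDR = 0.0675), and limma on log2(TPM + 1) put it past the threshold (FDR = 0.0493). On that scale the median log2 fold change over all genes was 0.076, against -0.005 in the main fit.

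SOX18 had 85.6, 115.5 and 148.5 CPM in heat stress 1, 2 and 3, against 74.7, 76.3 and 69.3 CPM in thermoneutral 1, 2 and 3. Thermoneutral libraries were close together and heat stress libraries spread widely, with a coefficient of variation of 27.0% in heat stress and 5.06% in thermoneutral fat. The log2 fold change was 0.67 ± 0.19 (FDR = 0.130), and it was 0.455 without heat stress 3.

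Among 18 other endothelial transcription factors, MECOM rose and 0 fell past the FDR in edgeR, and 4 were higher and 0 lower at an unadjusted p under 0.05 (9.56% and 9.2% of all genes). DESeq2 called 2 of the 18 higher and 0 lower (5.09% and 4.09% of all genes). MECOM, a zinc finger factor of blood and endothelial progenitors, had 94.9, 75.5 and 89.2 CPM in heat stress 1, 2 and 3, against 50.1, 48.8 and 49.2 CPM in thermoneutral 1, 2 and 3. The thermoneutral libraries lay close together, and all heat stress libraries were far above them. Its log2 fold change was 0.81 ± 0.10 (FDR = 0.0476), and the call was lost in every fit that left out 1 library. The FDR was then 0.0579, 0.0561 and 0.147 without heat stress 1, 2 and 3 and 0.0641, 0.131 and 0.160 without thermoneutral 1, 2 and 3. The median log2 fold change of the 18 factors was 0.21.

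CDH5 (gene ID 374068) encodes VE-cadherin, the adhesion protein of endothelial junctions. It had 500.4, 404.5 and 476.7 CPM in heat stress 1, 2 and 3, against 458.7, 372.5 and 365.7 CPM in thermoneutral 1, 2 and 3. The groups overlapped through heat stress 2 and thermoneutral 1. The log2 fold change was 0.21 ± 0.13 (FDR = 0.452).

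PECAM1 (gene ID 771243), or CD31, is an adhesion protein of endothelial junctions that leukocytes and platelets also carry in mammals. It was the most abundant of the 10, at 1412, 1362 and 1637 CPM in heat stress 1, 2 and 3, against 1659, 1236 and 1531 CPM in thermoneutral 1, 2 and 3. The groups overlapped almost completely, with a log2 fold change of -0.005 ± 0.15 (FDR = 0.989). T cell markers, 8 tested, had a summed level of 93.2 to 108.0 CPM in heat stress and 152.6 to 164.4 CPM in thermoneutral fat. The 5 thrombocyte and megakaryocyte markers tested summed to 206.0 to 362.9 CPM in heat stress and 459.4 to 570.4 CPM in thermoneutral fat. Both sums were lower in every heat stress library. THBS1 and F13A1 made up most of the thrombocyte sum. Taken singly, 4 of its 5 markers overlapped between the groups. The exception was THBS1, at 161 ± 58.0 CPM in heat stress and 287 ± 28.7 CPM in thermoneutral fat. The part of both marker sets in the PECAM1 level was not tested.

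Of 16 other surface and junction proteins of endothelium tested, 0 passed the FDR in edgeR, 8 were higher and 0 lower at an unadjusted p under 0.05, where 9.56% of all genes tested were higher and 9.2% lower. DESeq2 called 8 of the 16 higher and 0 lower (5.09% and 4.09% of all genes). CAV1, the main protein of caveolae and also abundant in adipocytes, averaged 321 ± 17.1 CPM in heat stress and 196 ± 21.2 CPM in thermoneutral fat (log2 fold change 0.71 ± 0.11, FDR = 0.0542). PLVAP, which forms the diaphragms of caveolae and fenestrae in capillary walls, averaged 238.5 ± 57.9 CPM in heat stress and 119.5 ± 15.3 CPM in thermoneutral fat (log2 fold change 0.997 ± 0.19, FDR = 0.0676). The median log2 fold change of the 16 was 0.40, and 8 of them overlapped between the groups.

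In all, 6 of the 10 genes passed an adjusted p of 0.05 in the authors' deposited table. That table gave adjusted p = 1.37e-13 for TSPAN18, 0.000136 for SOX7 and 0.0008 for FLT1. In the authors' deposited table the adjusted p was 0.00124 for APLNR, 0.0213 for SOX18 and 0.0478 for KDR, and TIE1 missed the threshold (0.0988). The share of all genes that passed there with heat stress higher was 5.09%, against 0.115% in edgeR's test. How many of the 10 genes were called thus depended on the test. DESeq2, run on the same counts, gave the same adjusted p as the deposited table for each of the 10 genes. Its 6 calls are thus a repeat of that table and no separate support.

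Per-length levels, in the authors' TPM, placed the genes in an order that shifted between the groups. PECAM1 led in both, at 807 ± 66.8 TPM in heat stress and 759 ± 104.5 TPM in thermoneutral fat, above all other genes of the set in every library. TSPAN18 was the second most abundant in heat stress (217 ± 25.2 TPM) and the fifth in thermoneutral fat (86.0 ± 11.1 TPM). In heat stress its range overlapped that of CDH5 (209 ± 19.6 TPM), the next in order, and CDH5, SOX7 and SOX18 each overlapped the next gene in order. TIE1 (138 ± 26.0 TPM), which followed SOX18, stood clear of TEK (64.3 ± 8.03 TPM). In thermoneutral fat CDH5 (169 ± 19.3 TPM) stood clear of TIE1, SOX18, TSPAN18 and SOX7, which each overlapped the next of these 4. TEK, KDR, FLT1 and APLNR came last in both groups and in that order. KDR averaged 51.0 ± 8.90 TPM in heat stress and 32.3 ± 5.73 TPM in thermoneutral fat, and FLT1 averaged 31.2 ± 3.19 TPM in heat stress and 16.3 ± 3.47 TPM in thermoneutral fat. The ranges of KDR and FLT1 did not overlap in either group, while those of FLT1 and APLNR overlapped in both.

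**Figure D3:**
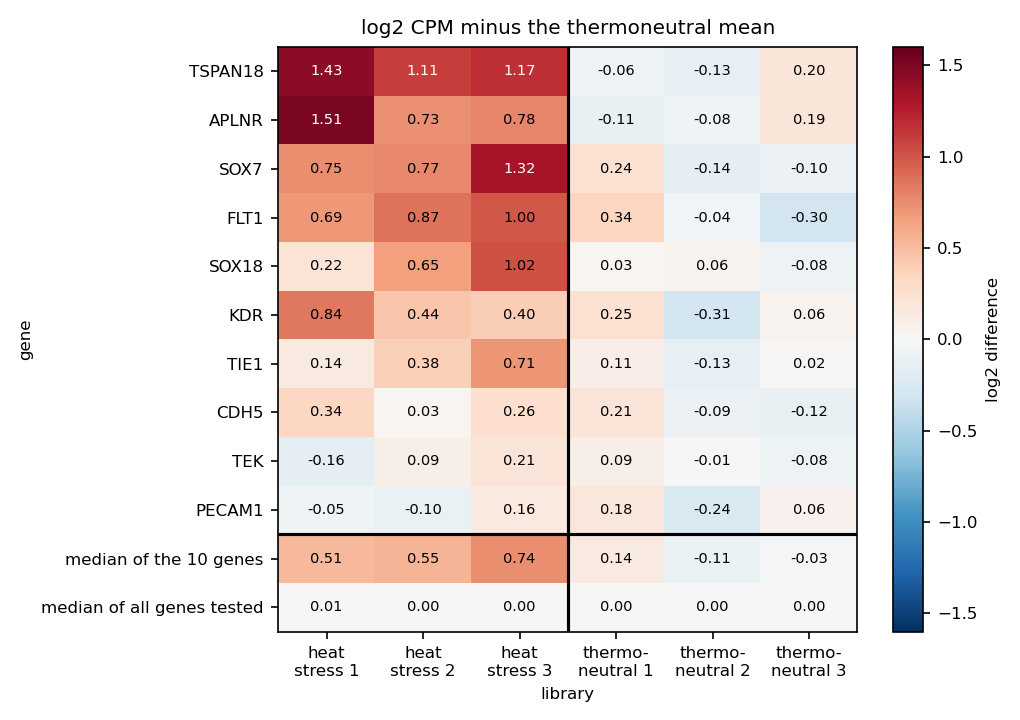
Log2 CPM of each gene in each library minus the mean of the 3 thermoneutral libraries, with genes ordered by fold change and medians in the lowest rows. Heat stress 1 holds the highest value of TSPAN18 (1.43), APLNR (1.51), KDR (0.845) and CDH5 (0.335), and heat stress 3 holds the highest heat stress value of the other 6 genes.

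Heat stress libraries did not share one order across the genes. Among heat stress libraries, heat stress 1 was the highest for 4 genes, TSPAN18, APLNR, KDR and CDH5, and heat stress 3 for 6 genes. Heat stress 1 was the lowest of its group for 5 genes, FLT1, TEK, TIE1, SOX7 and SOX18. Relative to the thermoneutral mean, SOX18 stood at 0.22, 0.65 and 1.02 log2 units in heat stress 1, 2 and 3, whereas APLNR stood at 1.51, 0.73 and 0.78. The summed level of macrophage markers, 8 tested, also set heat stress 1 apart, at 4961 CPM in heat stress 1 against 2789 and 3269 CPM in heat stress 2 and 3, with 5063, 4584 and 4611 CPM in thermoneutral 1, 2 and 3. CD74 made up most of this sum, at 3934, 2129 and 2603 CPM in heat stress 1, 2 and 3. The part of these markers in the spread of the 10 genes was not tested. In thermoneutral fat, library 1 was the highest for 7 of the 10 genes.

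Ratios within a library do not depend on how libraries are scaled, so each gene was also set against PECAM1 and CDH5, a comparison chosen after the values were seen. PECAM1 itself had a log2 fold change of -0.005, so ratios to it largely repeat the CPM result and are no separate support. With 3 libraries in each group, the exact permutation test cannot give a two-sided p under 0.1. TSPAN18 had 7.848, 6.503 and 5.643 counts per 100 PECAM1 counts in heat stress 1, 2 and 3, against 2.364, 3.027 and 3.063 in thermoneutral 1, 2 and 3. The groups did not overlap (2.36-fold, exact permutation p = 0.1). SOX7 had 12.2, 12.8 and 15.6 counts per 100 PECAM1 counts in heat stress 1, 2 and 3, against 7.28, 7.48 and 6.25 in thermoneutral 1, 2 and 3, also without overlap (1.93-fold, exact permutation p = 0.1). Ratios to PECAM1 did not overlap, with heat stress higher, for 6 of 9 genes, FLT1, KDR, TIE1, SOX7, APLNR and TSPAN18, and for 8.51% of all other genes tested. Those of SOX18, CDH5 and TEK overlapped.

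Set against CDH5, the number without overlap was 4 of 9, namely FLT1, SOX7, APLNR and TSPAN18, each higher in heat stress with exact permutation p = 0.1. Among all other genes tested, 4.29% were without overlap and higher by this ratio. FLT1 had 11.3, 15.9 and 14.7 counts per 100 CDH5 counts in heat stress 1, 2 and 3, against 9.72, 9.17 and 7.79 in thermoneutral 1, 2 and 3. Ratios of KDR, TIE1 and SOX18 to CDH5 overlapped between the groups, as did those of TEK and PECAM1. KDR had 31.2, 29.2 and 24.0 counts per 100 CDH5 counts in heat stress 1, 2 and 3, against 22.5, 18.8 and 24.7 in thermoneutral 1, 2 and 3 (1.28-fold, exact permutation p = 0.2). None of the 18 ratios tested could pass 0.05 in this design.

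**Figure D4:**
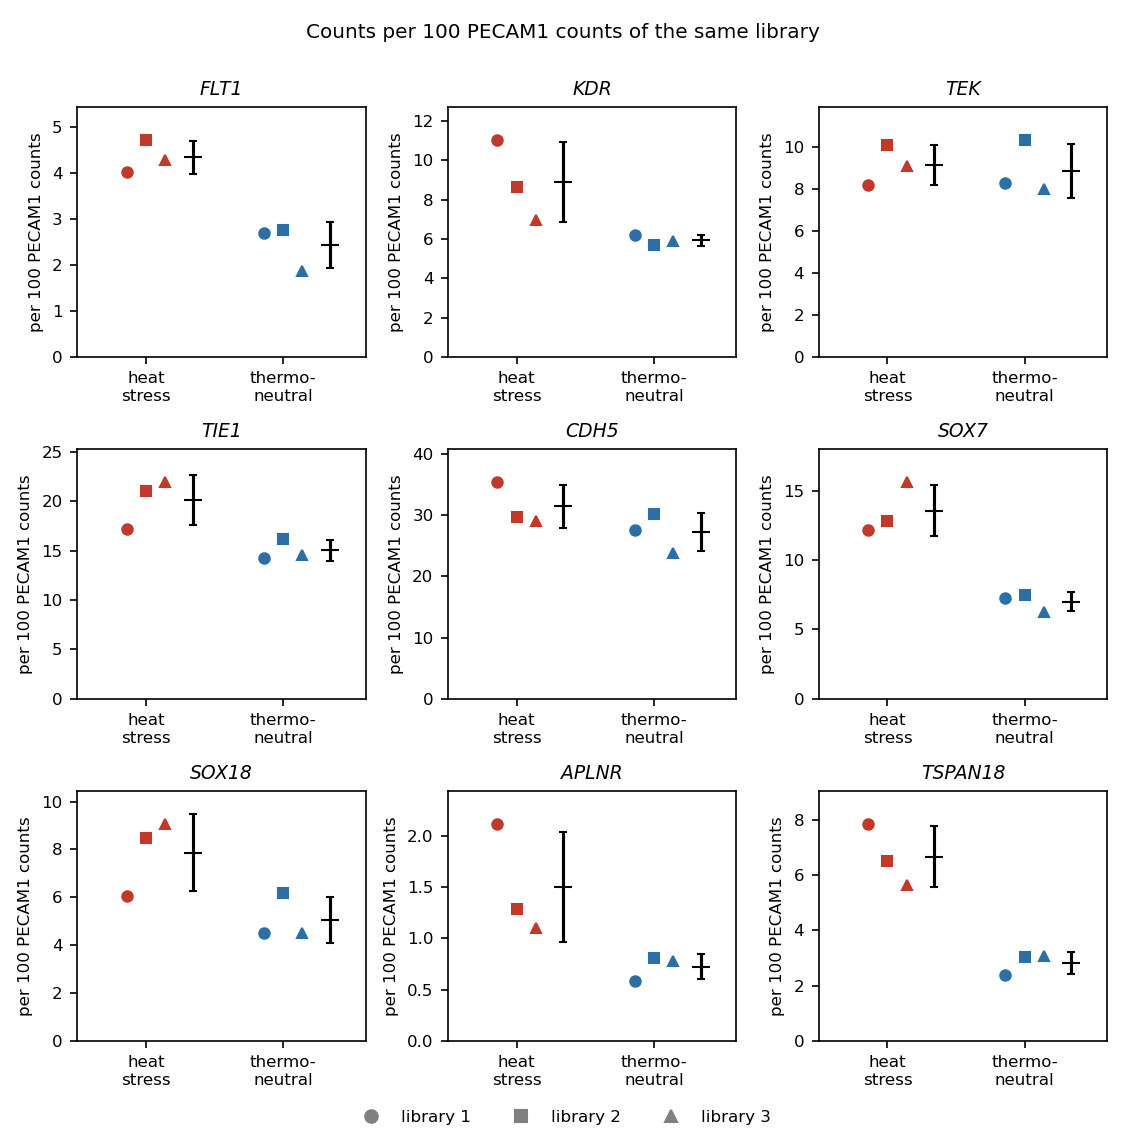
Counts of 9 endothelial genes per 100 PECAM1 counts of the same library, with heat stress on the left and thermoneutral on the right, one symbol per library and bars for the mean ± SD (n = 3 each). The groups are apart for FLT1, KDR, TIE1, SOX7, APLNR and TSPAN18 and overlap for TEK, CDH5 and SOX18.

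Among the vessel gene lists with more than 1 gene, Notch and ephrin genes had the highest median log2 fold change (0.59). The Notch pathway selects which endothelial cells lead a sprout, with DLL4 as the ligand on the leading cell. Of 5 Notch and ephrin genes tested, 0 passed the FDR in edgeR, 4 were higher and 0 lower at an unadjusted p under 0.05 (9.56% and 9.2% of all genes), and DESeq2 called 2 higher (5.09% of all genes). DLL4 had 154.2, 113.0 and 141.3 CPM in heat stress 1, 2 and 3, against 75.1, 69.6 and 56.8 CPM in thermoneutral 1, 2 and 3 (log2 fold change 1.02 ± 0.15, FDR = 0.0536). NOTCH1 averaged 199 ± 25.3 CPM in heat stress and 125 ± 4.70 CPM in thermoneutral fat (log2 fold change 0.67 ± 0.11, FDR = 0.0573). Both lay without overlap and just outside the threshold.

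The ALK1 and endoglin pathway transmits bone morphogenetic protein signals in endothelium. Of 11 of its genes tested, 0 passed the FDR in edgeR, 2 were higher at an unadjusted p under 0.05 (9.56% of all genes), and DESeq2 called 0. Log2 fold changes were positive for 10 of the 11, with a median of 0.265. Those of smallest p were the inhibitory factors SMAD7 (78.6 ± 7.52 CPM in heat stress and 58.4 ± 9.45 CPM in thermoneutral fat, FDR = 0.166) and SMAD6 (FDR = 0.213). Among 7 genes of vascular tone, 0 passed the FDR in edgeR, 2 were higher and 1 was lower at an unadjusted p under 0.05 (9.56% and 9.2% of all genes), and DESeq2 called 2 higher (5.09% of all genes). Log2 fold changes were positive for 6 of the 7, with a median of 0.09. EDNRB, an endothelin receptor, averaged 6.51 ± 1.16 CPM in heat stress and 3.67 ± 0.68 CPM in thermoneutral fat (FDR = 0.140). EDN1, the endothelin-1 precursor, averaged 16.3 ± 1.52 CPM in heat stress and 21.9 ± 2.77 CPM in thermoneutral fat (log2 fold change -0.43 ± 0.13, FDR = 0.166).

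Across the 9 lists of further vessel genes and tetraspanins together, 87 genes were tested. Of these, 28 were higher and 3 lower at an unadjusted p under 0.05, beside 9.56% and 9.2% of all genes tested. In edgeR 1 of the 87, MECOM, passed the FDR, and DESeq2 called 18 higher and 1 lower, where it called 5.09% of all genes higher and 4.09% lower. The median log2 fold change of the 87 was 0.28, and 71 were positive. These lists, too, were chosen with earlier results of these data known, so the shares are no test.

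**Figure D5:**
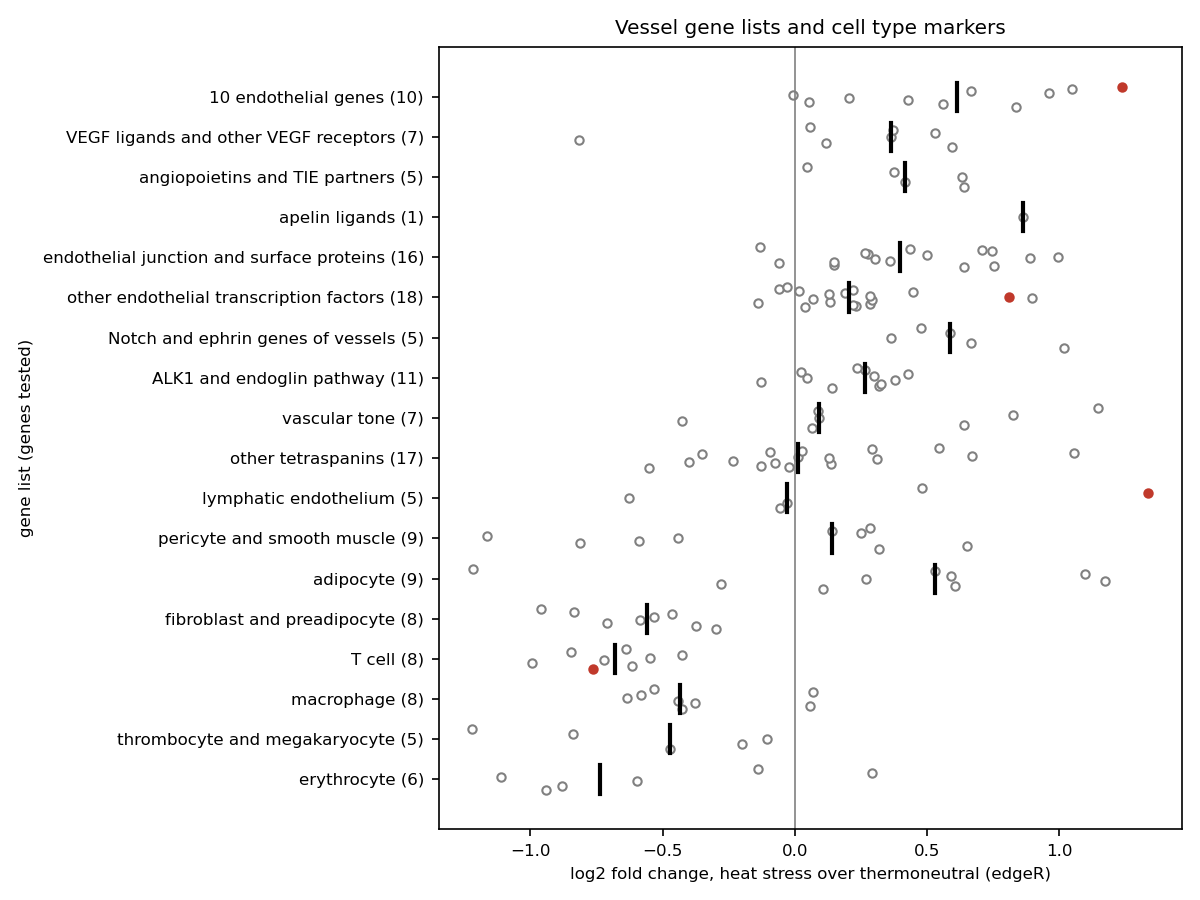
Log2 fold change of heat stress over thermoneutral for the 10 genes and every tested gene of the further vessel gene lists and the cell type markers. Each point is a gene, and a bar marks each list's median. Filled points passed the FDR of 0.05 over all genes tested. Medians are 0.61 for the 10 genes, 0.40 for junction and surface proteins and 0.59 for Notch and ephrin genes. They are 0.53 for adipocyte, -0.56 for fibroblast and -0.68 for T cell markers.

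Markers of other cells in the tissue had log2 fold changes of both signs. The 5 genes of the lymphatic list summed to 118.6 to 135.5 CPM in heat stress and 65.4 to 81.3 CPM in thermoneutral fat. CCBE1 carried this gap, since without it the other 4 summed to 28.4, 48.5 and 29.8 CPM in heat stress 1, 2 and 3 and 33.8, 51.6 and 29.9 CPM in thermoneutral 1, 2 and 3, a sum taken after the values were seen. PROX1, LYVE1 and RELN had log2 fold changes of -0.054, -0.028 and 0.483, each with overlapping groups. CCBE1, a secreted factor of lymphatic growth, rose, at 89.7 ± 3.19 CPM in heat stress and 35.5 ± 5.82 CPM in thermoneutral fat (log2 fold change 1.34 ± 0.13, FDR = 0.0355). PDPN, a membrane glycoprotein, stood at 10.4 ± 2.05 CPM in heat stress and 16.1 ± 3.47 CPM in thermoneutral fat (FDR = 0.189). The CCBE1 call was lost without heat stress 2 (FDR = 0.0561), heat stress 3 (FDR = 0.147) or thermoneutral 3 (FDR = 0.126). Pericyte markers RGS5 (835 ± 83.4 CPM in heat stress and 531 ± 141 CPM in thermoneutral fat, FDR = 0.143) and PDGFRB (589 ± 22.1 CPM in heat stress and 472 ± 29.9 CPM in thermoneutral fat, FDR = 0.143) were without overlap. Smooth muscle markers had the opposite sign, with ACTA2 at 218 ± 92.5 CPM in heat stress and 382 ± 93.8 CPM in thermoneutral fat (FDR = 0.276) and MYH11 at 127 ± 35.8 CPM in heat stress and 191 ± 32.6 CPM in thermoneutral fat (FDR = 0.223), both without overlap. These, named after their values were seen, had log2 fold changes of -0.81 and -0.59, beside -1.16 for CNN1 and -0.44 for TAGLN. The remaining KCNJ8, ABCC9 and CSPG4 of this list overlapped between the groups (log2 fold changes 0.25, 0.14 and 0.29). Of the 9 markers of this list, 2 were higher and 2 lower at an unadjusted p under 0.05 (9.56% and 9.2% of all genes). The summed level of the 9 pericyte and smooth muscle markers overlapped, at 1871 to 2208 CPM in heat stress and 1669 to 2063 CPM in thermoneutral fat.

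All 8 fibroblast and preadipocyte markers and all 8 T cell markers had negative log2 fold changes. The fibroblast markers summed to 33400 to 40990 CPM in heat stress and 46470 to 58090 CPM in thermoneutral fat. A collagen gene, COL3A1, made up most of this sum, at 25700 ± 2480 CPM in heat stress and 35450 ± 3508 CPM in thermoneutral fat. Taken singly, 2 of the 8 fibroblast markers, PDGFRA and COL1A1, overlapped between the groups. The other 6 were apart with heat stress lower, as were 12.4% of all genes tested. The smallest p in these lists belonged to LUM, a matrix proteoglycan (328 ± 33.4 CPM in heat stress and 536 ± 31.1 CPM in thermoneutral fat, FDR = 0.0544), FBLN1 (FDR = 0.102), CD3D (23.0 ± 0.54 CPM in heat stress and 39.1 ± 2.215 CPM in thermoneutral fat, FDR = 0.0476) and CD3E (FDR = 0.0518). CD3D passed the FDR with all 6 libraries and in no fit that left out 1 of them (FDR = 0.0567 to 0.147). Erythrocyte markers summed to 264.6, 439.8 and 415.6 CPM in heat stress 1, 2 and 3, against 513.6, 972.8 and 439.5 CPM in thermoneutral 1, 2 and 3. This sum overlapped between the groups through heat stress 2 and thermoneutral 3. The part of these marker sets in the levels of the endothelial genes was not tested.

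In the remaining lists, adipocyte genes of smallest p were LPL (6434 ± 1411 CPM in heat stress and 2852 ± 1304 CPM in thermoneutral fat, FDR = 0.130) and PNPLA2 (3548 ± 1014 CPM in heat stress and 8237 ± 3648 CPM in thermoneutral fat, FDR = 0.144). Those of the macrophage list were CSF1R (FDR = 0.158) and TIMD4 (FDR = 0.264), those of the thrombocyte list F13A1 (FDR = 0.131) and THBS1 (FDR = 0.167), and those of the erythrocyte list SPTB (FDR = 0.131) and HBA1 (FDR = 0.218). These 6 genes, picked by p, had negative log2 fold changes. Over the whole lists, log2 fold changes were negative for 6 of 8 macrophage, 5 of 5 thrombocyte and 5 of 6 erythrocyte markers, and positive for MPEG1 (0.07), MARCO (0.06) and SLC4A1 (0.29). The adipocyte list leaned the other way, with 7 of its 9 markers positive and PNPLA2 among the 2 that were negative.

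The mean profile of the 10 genes over the 6 libraries was also set against those of other named genes with at least 5 CPM on average. Genes with no symbol or a provisional one, such as LOC symbols, were left out. The nearest 5 were DACH1, RAPGEF1, ARHGEF16, MACF1 and CHD7, with a root mean square difference of 0.048 to 0.056 log2 units over 6 libraries. DACH1, a transcription factor, had 24.2, 21.0 and 25.9 CPM in heat stress 1, 2 and 3, against 17.8, 14.9 and 15.3 CPM in thermoneutral 1, 2 and 3. These 5 were chosen for their likeness to a profile that separates the groups, so their own separation is no result. Among the 10 genes, the difference from their mean profile ran from 0.158 log2 units for TIE1 to 0.363 for TSPAN18.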

How the data were processed

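Per the labels' protocols, RNA was isolated with TRIzol and sequenced from libraries of a stranded kit for messenger RNA. HISAT2 (2.1.0), Bowtie2 (2.3.4.1), StringTie (2.1.3b) and build GRCg6a are named in the submitters' processing notes. How counting treated strand is not given in the sources used here, so a gene that overlaps an antisense partner is uncertain. The authors deposited, per the file headers, a raw read count, an FPKM value and a TPM value for every gene and library. Their signed fold change (a score) and their raw and adjusted p-value for heat stress over thermoneutral were also deposited. The lowest count listed is 1.

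Counts were tested with edgeR 4.0.16 (R 4.3.3; TMM, filterByExpr, group as the only term, Benjamini-Hochberg over 14743 genes). The standard error is the size of the log2 fold change over the square root of F. DESeq2 1.42.0 and limma 3.58.1 gave alternatives. The main edgeR fit, DESeq2 and limma on log2(CPM + 1) were run on simulated counts, where the error of the fold changes was checked. The limma fits on TPM and FPKM and the other edgeR fits were not simulated. Columns of per-library values left unused numbered 36. The 10 genes and the lists were chosen with earlier results of these data known. From each vessel list the text names genes past the FDR, or else the 2 of smallest p. From each cell type list it names the 2 of smallest p. VEGFA, PGF, ANGPTL1, CLDN5, ESAM, ERG, EGFL7, PROX1, LYVE1, RELN, CD74, PDGFRA, COL1A1 and COL3A1 fall outside this rule. So do ACTA2, MYH11, CNN1, TAGLN, KCNJ8, ABCC9, CSPG4, MPEG1, MARCO and SLC4A1. Of 173 list symbols, 144 were listed. Counts of libraries within a group differed by more than sampling noise, with chi-square over its degrees of freedom at 34.4 to 98.22. Promoter and protein sequences were not analysed here.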

Additional observations from a re-analysis of the deposited data

How the results depend on the processing

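The number of genes past the FDR over the whole table was 26 (17 higher, 9 lower). It was 99 (80 higher, 19 lower) with library totals, 133 (92 higher, 41 lower) with at least 1 CPM in all 6 libraries, 1364 (756 higher, 608 lower) in DESeq2, 202 (184 higher, 18 lower) with limma on log2(TPM + 1), 94 (77 higher, 17 lower) on log2(FPKM + 0.1), and 3 to 35 with 1 library left out. Of the 10 genes followed, 1 passed. The number was 6 in DESeq2, 2 with limma on log2(TPM + 1), and 0 to 1 with 1 library left out. Of the other 87 genes, 1 passed; 4 did with library totals, 4 with the 1 CPM filter, 19 in DESeq2, 4 on log2(TPM + 1), 0 on log2(FPKM + 1), 3 on log2(FPKM + 0.1), and 0 with any library left out. RLE scaling and no filter on low counts left each of these counts within 1.5 times. PECAM1, at -0.005, had log2 fold changes of 0.018 with library totals, 0.095 on log2(TPM + 1), 0.01 on each FPKM scale, 0.001 with the replicate block and -0.125 to 0.087 with 1 library left out, and TEK ran from -0.026 to 0.151 in those last fits. The other 8 genes kept a positive sign in every alternative run. The causes were not tested.

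The labels do not describe same-numbered libraries as pairs. The numbers are those of the sample titles, and the library names carry other numbers that differ within each such pair. Deviations of same-numbered libraries correlated at 0.078, 0.252 and 0.036 across genes. Heat stress 1 and heat stress 2 correlated best with the thermoneutral library of the same number, and heat stress 3 with thermoneutral 1 (0.109). With the number as a replicate block, 95 genes passed (74 higher, 21 lower), TSPAN18 the 1 gene of the 10 among them. Of the 87, 1 passed, PLVAP (FDR = 0.0459) and not MECOM (FDR = 0.0511), and CD3D missed the threshold (FDR = 0.0528). Each of the 10 genes had at least 291 counts in every library.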
